A study of Mus musculus with 8 samples.

Results

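The SLC25 family, the carrier proteins of the inner mitochondrial membrane, was examined in perivascular fat of the mouse thorax. Its members were taken by name, as every gene symbol of Slc25a followed by a number that had a probe set of its own, and 46 genes of the 18782 measured met this rule. Samples were 4 labelled RictoraP2KO and 4 labelled control, each on 1 Affymetrix array. The control genotype was Rictorfl/fl, mice with floxed Rictor alleles. Rictor defines the kinase complex mTORC2, and aP2 (Fabp4) is the fat cell gene whose promoter the knockout is named for. The series title places the deletion in brain as well as fat. All mice were male, 17 to 22 weeks old, starved overnight and killed at 9 am.

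Carriers of this family exchange nucleotides, phosphate, carboxylates, amino acids and cofactors between cytosol and mitochondrial matrix, and so connect the respiratory chain and fat oxidation with the rest of metabolism. The uncoupling protein UCP1, the source of heat in brown fat, is a carrier of the same family under another name. Thoracic perivascular fat of mice is known to resemble brown fat and is rich in mitochondria.

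Values are log2 RMA signals, in which 1 unit is a doubling on the array's own scale, and differences are RictoraP2KO minus control. Signals of the adipokine gene Adipoq ran from 10.85 to 11.08 over the 8 arrays, and those of Ucp1 from 11.32 to 12.01. Mean signals of 7 of 8 adipocyte markers lay above the median of all probe sets (3.77), with Lep below it at 3.51. Those of all 10 brown fat markers lay above that median, from 6.65 to 11.71. The Rictor signal itself averaged 6.68 ± 0.08 in the samples labelled RictoraP2KO and 6.54 ± 0.06 in controls (SD, n = 4; limma adjusted p = 0.685). It was no lower with the knockout label. Whether the probe set covers the deleted exons was not tested, and directions rest on the labels. Marker genes of other tissues stood out in 3 arrays, as list means relative to each gene's mean over the arrays. RictoraP2KO replicate 2 had the highest skeletal muscle value, 1.31 against at most -0.07 elsewhere, and the highest cardiac muscle value, 1.41. Control replicate 2 had the highest lung epithelium value (2.22) and control replicate 3 the highest neuron value (1.32). Without these 3 arrays, the difference changed sign for 10 of the 46 carriers, and the share over all genes was not counted. In a tissue sample, fewer cells of a type and less RNA per cell cannot be told apart.

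No SLC25 gene passed the test between the groups after adjustment over all 28371 probe sets. The smallest adjusted p among the 46 members was 0.605 (limma), where 1 probe set of the whole table passed (0.00352% of probe sets, 0.00532% of genes). At an unadjusted p under 0.05 there was 1 member lower, Slc25a4 (2.17% of members), and 0 higher. Over all genes, 3.56% were lower and 2.92% higher at that level. Signs were mixed, with 22 members above and 24 below 0, where 46.8% of all genes were above and 53.2% below, and the median difference was -0.0091 against -0.0080 over all genes. In absolute size the median member difference was 0.0695, against 0.0738 over all genes.

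Most differences in signal were bounded narrowly. The 95% interval of 37 of the 46 members lay wholly within a 1.5-fold difference either way (0.58 on the log2 scale). These include 26 of the 34 members above the array median. The rest of the 37 lay below it, where presence of the transcripts was not tested, so their intervals bound signals and not transcript amounts. Intervals of 9 members reached past that size, those of Slc25a1, Slc25a17, Slc25a18, Slc25a23, Slc25a25, Slc25a33, Slc25a34, Slc25a42 and Slc25a48. For these, a 1.5-fold difference in at least 1 direction lay within the interval.

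**Figure D1:**
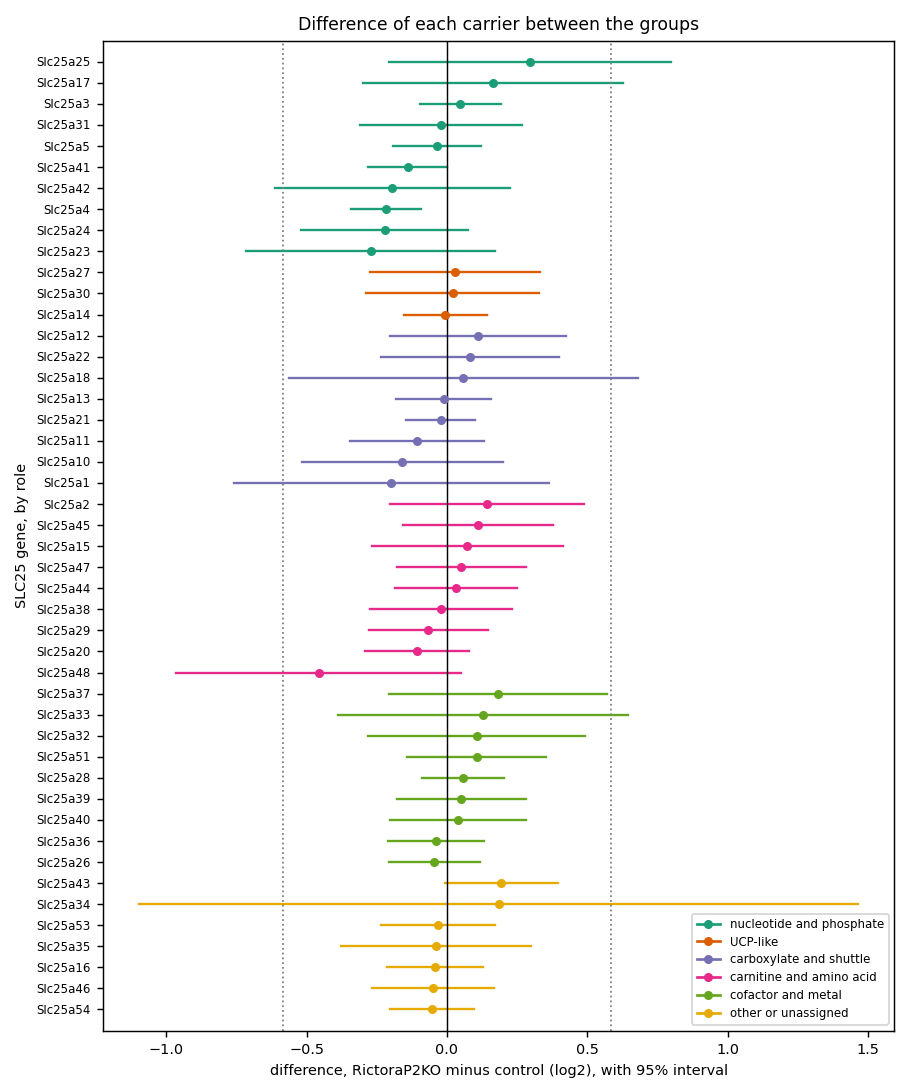
Each point is the log2 difference of 1 SLC25 gene (RictoraP2KO minus control), drawn with its 95% limma interval and coloured by role. Dotted lines mark a 1.5-fold difference (0.58); Slc25a4 is the member with the smallest p, and Slc25a34 has by far the widest interval, from -1.10 to 1.47.

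Signals of the family ran from 1.70 for Slc25a54 to 11.00 for Slc25a5, with a median of 6.14. Of these, 34 members lay above the median of all probe sets (3.77) and 12 below it. The 7 highest mean signals belonged to Slc25a5 (11.00), Slc25a3 (10.61), Slc25a1 (10.16), Slc25a20 (10.14), Slc25a39 (9.77), Slc25a11 (9.72) and Slc25a51 (9.63). They include carriers of ADP and ATP, phosphate, citrate, acylcarnitine, oxoglutarate, glutathione and NAD. Probe sets bind with different strength, so this is an order of signals and not of transcript amounts. The 12 members below the median were Slc25a2, Slc25a13, Slc25a14, Slc25a18, Slc25a21, Slc25a29, Slc25a31, Slc25a41, Slc25a43, Slc25a47, Slc25a53 and Slc25a54. With no detection call in the deposited values, whether these transcripts were present was not tested.

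**Figure D2:**
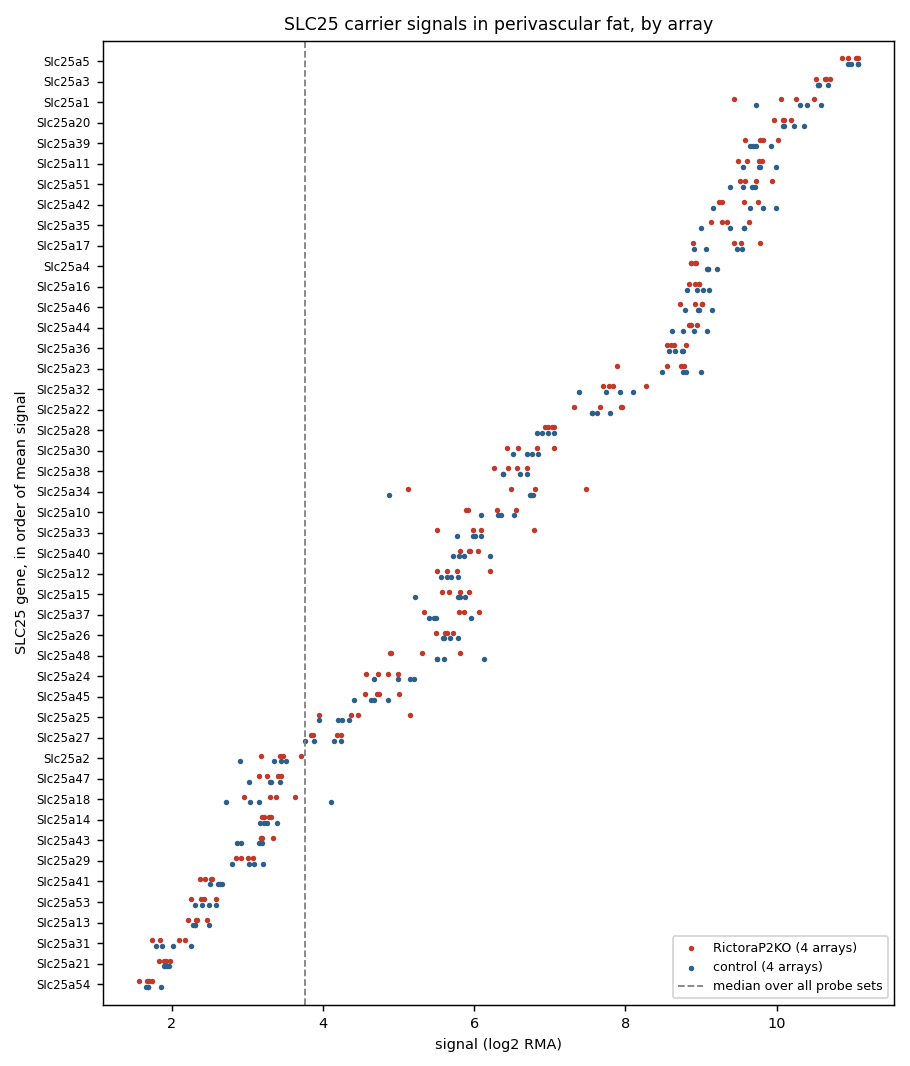
Log2 RMA signal of each SLC25 gene in each of the 8 arrays, with genes in order of their mean and the median of all probe sets (3.77) as a dashed line. Slc25a5 and Slc25a3 lie at the top with little spread, and the points of Slc25a34 are spread over 2.60 units.

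The carriers of adenine nucleotides and phosphate supply ATP synthase with its substrates and export its product. Of the 10 members of this group, 7 had differences below 0, where 53.2% of all genes were below. An unadjusted p under 0.05 was reached by 1, on the lower side, where 3.56% of all genes were lower. Slc25a4 encodes ANT1, the ADP/ATP carrier typical of heart and muscle. Its signals were 8.93, 8.87, 8.93 and 8.87 in RictoraP2KO replicates 1 to 4, and 9.07, 9.21, 9.10 and 9.09 in control replicates 1 to 4. All 4 arrays labelled RictoraP2KO lay below all 4 control arrays. Such a gap on the lower side was seen in 1 of the 46 members and 2.07% of all genes, and one on the higher side in 0 members and 1.5% of all genes. The difference was -0.22 (SE 0.055, 95% interval -0.34 to -0.09; limma adjusted p = 0.605). Unadjusted, limma gave p = 0.00338 and an exact permutation of the labels (two-sided, 70 assignments) gave p = 0.0286, the smallest the latter can give. Its spread within the groups was small, with an SD of 0.05, and 3.00% of genes had a smaller one. Without the 3 arrays with signal of other tissues it was -0.17 (limma adjusted p = 0.969), and no longer at an unadjusted p under 0.05. The means of 9 cardiac markers ran from -1.14 to 1.41 in the arrays labelled RictoraP2KO and from -0.84 to 0.64 in the control arrays, and their part in the Slc25a4 value was not tested.

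The stretch before the transcript start of Slc25a4 is shown with that of Slc25a34, the most variable member described later, since these are the genes the results turn on. Both are the 250 bases upstream of a RefSeq transcript start, GRCm38.p6, minus strand, for Slc25a4 at chr8:46211063-46211312 and for Slc25a34 at chr4:141623835-141624084.
Slc25a4: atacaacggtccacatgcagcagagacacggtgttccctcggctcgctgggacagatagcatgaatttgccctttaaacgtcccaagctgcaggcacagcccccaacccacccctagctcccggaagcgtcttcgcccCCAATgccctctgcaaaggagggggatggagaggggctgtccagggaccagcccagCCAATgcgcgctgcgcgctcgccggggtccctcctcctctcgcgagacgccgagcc
Slc25a34: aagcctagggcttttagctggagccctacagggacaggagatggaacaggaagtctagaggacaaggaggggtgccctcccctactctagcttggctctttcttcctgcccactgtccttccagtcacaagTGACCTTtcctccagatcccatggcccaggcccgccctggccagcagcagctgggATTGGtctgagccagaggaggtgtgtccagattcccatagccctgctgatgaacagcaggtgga
Capitals mark matches, on either strand, to 3 motifs that do not overlap: AAGGTCA (the half-site read by estrogen-related receptors), CCAAT (the box of NF-Y) and CACGTG (the E-box of clock and MYC factors). Slc25a4 holds CCAAT at 2 places, and Slc25a34 holds AAGGTCA and CCAAT once each, both on the reverse strand. Over the 32851 promoters of the table, 4.08% hold AAGGTCA, 33.9% CCAAT and 6.02% CACGTG. Of the 36 members with a promoter in the table, AAGGTCA was found in 1, CCAAT in 18 and CACGTG in 7. A member counts if any of its promoters matched, while the percentages count promoters, so they cannot be compared directly. The motifs found are matches of letters, not sites of binding.

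Slc25a5, which encodes ANT2, the ADP/ATP carrier of most other cell types, showed no such separation. Its signals were 10.94, 10.86, 11.08 and 11.05 in the arrays labelled RictoraP2KO and 11.08, 10.94, 11.07 and 10.98 in the control arrays, which overlap. The difference was -0.04 (SE 0.069, 95% interval -0.19 to 0.12). The annotation gives this gene 3 probe sets, with differences of -0.04, -0.03 and -0.05, and near-identical copies of it in the genome cannot be told apart by name. The testis paralog Slc25a31 had a signal of 1.98. Slc25a3, the phosphate carrier, stood at 10.52, 10.71, 10.65 and 10.64 against 10.68, 10.55, 10.54 and 10.56, a difference of 0.05 (SE 0.063, 95% interval -0.10 to 0.19). The SD within the groups was 0.07 for Slc25a3 and 0.09 for Slc25a5, below the family's median of 0.17.

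The ATP-Mg/phosphate carriers adjust the adenine nucleotide pool of the matrix, most of them under control of calcium. Slc25a23 stood at 8.74, 7.89, 8.77 and 8.55 in the arrays labelled RictoraP2KO and at 8.99, 8.79, 8.49 and 8.77 in the control arrays. RictoraP2KO replicate 2, the array with muscle signal, was the lowest. The groups differed by -0.27 (SE 0.195; limma adjusted p = 0.795), and by -0.07 without that array. Slc25a24 stood at 4.86, 4.99, 4.56 and 4.73 against 5.15, 4.68, 5.20 and 5.00, with control replicate 2 the lowest control. Its difference was -0.22 (SE 0.131; limma adjusted p = 0.767). Without control replicate 2 it was -0.33 (adjusted p = 0.860), and without the 3 arrays -0.36 (adjusted p = 0.969), both at an unadjusted p under 0.05. Without RictoraP2KO replicate 3, the lowest array for this gene, the difference was -0.15. Slc25a25, whose transcript is known to be induced by stimuli, stood at 4.46, 4.37, 3.95 and 5.15 in the arrays labelled RictoraP2KO and between 3.95 and 4.35 in the 4 control arrays. RictoraP2KO replicate 4 alone lay above 5, and the difference of 0.30 (SE 0.221; limma adjusted p = 0.803) was 0.07 without it. Without RictoraP2KO replicate 3, the difference was 0.47 (limma adjusted p = 0.579), at an unadjusted p under 0.05. Slc25a41 was low throughout, at 2.52, 2.38, 2.44 and 2.53 against 2.66, 2.62, 2.64 and 2.51. Its difference was -0.14 (SE 0.062; limma adjusted p = 0.688), on a signal below the array median.

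The group also holds carriers of coenzyme A and related nucleotides. Slc25a42, the coenzyme A carrier, stood at 9.28, 9.57, 9.75 and 9.23 in the arrays labelled RictoraP2KO and at 9.99, 9.82, 9.64 and 9.16 in the control arrays. Control replicate 4 was the lowest of the 8. The difference of -0.20 (SE 0.184; limma adjusted p = 0.842) was -0.36 without that array (adjusted p = 0.796, unadjusted under 0.05) and -0.08 without control replicate 1. Slc25a17, the peroxisomal member of the family, differed by 0.16 (SE 0.204).

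A further 3 members resemble uncoupling proteins by sequence. Slc25a30 stood at 6.43, 6.84, 6.58 and 7.06 against 6.52, 6.70, 6.84 and 6.76, a difference of 0.02 (SE 0.136). Slc25a27, also called UCP4, stood at 4.25, 3.85, 4.18 and 3.87 against 3.76, 4.14, 4.24 and 3.89, a difference of 0.03 (SE 0.134). In both the groups overlapped widely. Slc25a14, or UCP5, had a mean signal of 3.26 and a difference of -0.0063. The uncoupling proteins proper did not pass either. Ucp1 differed by 0.07 (SE 0.156, 95% interval -0.28 to 0.43) and Ucp3, the form of muscle and brown fat, by -0.08 (SE 0.248, 95% interval -0.64 to 0.49). Ucp1 was lowest in RictoraP2KO replicate 1 (11.42) and control replicate 4 (11.32). Ucp2 was not analysed here. The carrier homologs of the outer membrane, Mtch1 and Mtch2, differed by -0.04 (SE 0.085) and 0.08 (SE 0.087).

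The carboxylate carriers move citrate out for lipid synthesis and run the malate-aspartate shuttle, which brings reducing power into the matrix. Of these 8 members, 5 had differences below 0, where 53.2% of all genes were below, and 0 had an unadjusted p under 0.05. Slc25a1, the citrate carrier, stood at 10.05, 9.43, 10.49 and 10.26 in the arrays labelled RictoraP2KO and at 10.40, 10.31, 9.72 and 10.59 in the control arrays. RictoraP2KO replicate 2 and control replicate 3 were the lowest. The groups differed by -0.20 (SE 0.248, 95% interval -0.76 to 0.36), and by 0.01 without RictoraP2KO replicate 2. Acly, the enzyme that splits the exported citrate, had its lowest signals in the same pair of arrays, 7.03 and 7.74, where the other 6 arrays lay between 8.51 and 9.45. Both arrays are among those with signal of another tissue, and the part of that signal in these values was not tested. Without them and control replicate 2, the Slc25a1 difference was -0.23.

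Slc25a11, the oxoglutarate/malate carrier of the shuttle, stood at 9.76, 9.49, 9.80 and 9.61 against 9.78, 9.76, 9.99 and 9.56, with overlapping groups. Its difference was -0.11 (SE 0.106; limma adjusted p = 0.849) and turned to 0.06 without the 3 arrays. The aspartate/glutamate carriers differed by 0.11 (SE 0.138) for Slc25a12 and by -0.01 (SE 0.075) for Slc25a13, the latter on a signal of 2.34. The glutamate carrier Slc25a22 differed by 0.08 (SE 0.14) and the dicarboxylate carrier Slc25a10 by -0.16 (SE 0.158). Slc25a18, a glutamate carrier best known from brain, differed by 0.06 (SE 0.275), with its highest signal, 4.10, in control replicate 4. The oxodicarboxylate carrier Slc25a21 had a signal of 1.92 and an SD of 0.05.

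Fatty acids enter the matrix as acylcarnitines through Slc25a20, and amino acids enter through several relatives of it. In this group of 9, 5 differences were above and 4 below 0, where 46.8% of all genes were above. Slc25a20 stood at 9.96, 10.10, 10.19 and 10.08 in the arrays labelled RictoraP2KO and at 10.36, 10.23, 10.09 and 10.08 in the control arrays. The groups overlapped, with the 2 highest values among the controls, and the difference was -0.11 (SE 0.082, 95% interval -0.29 to 0.08; limma adjusted p = 0.807). It was -0.05 without control replicate 1, the highest array. Its partners in the carnitine shuttle, Cpt1a and Cpt2, differed by 0.11 (SE 0.126) and 0.05 (SE 0.110). Slc25a44, a carrier of branched-chain amino acids in brown fat, stood at 8.86, 8.86, 8.94 and 8.84 against 9.08, 8.62, 8.90 and 8.77. All 4 arrays labelled RictoraP2KO lay inside the control range, and the difference was 0.03 (SE 0.096, 95% interval -0.19 to 0.25).

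Slc25a48 had the largest difference of the family in absolute size. It stood at 4.89, 4.90, 5.82 and 5.31 in the arrays labelled RictoraP2KO and at 6.13, 5.60, 5.50 and 5.51 in the control arrays. RictoraP2KO replicates 1, 2 and 4 were below all controls, and replicate 3 was above all but control replicate 1. The groups differed by -0.46 (SE 0.224, 95% interval -0.96 to 0.05; limma adjusted p = 0.724; exact two-sided permutation p = 0.20). The difference was -0.65 (adjusted p = 0.443, unadjusted under 0.05) without RictoraP2KO replicate 3 and -0.31 without control replicate 1. The remaining members of this group of 9 had smaller differences. They were -0.02 for the glycine carrier Slc25a38, 0.07 for the ornithine carrier Slc25a15 and 0.14 for its paralog Slc25a2, which was below the array median. Differences were 0.11 for Slc25a45, 0.05 for Slc25a47 and -0.07 for Slc25a29, a carrier of basic amino acids.

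**Figure D3:**
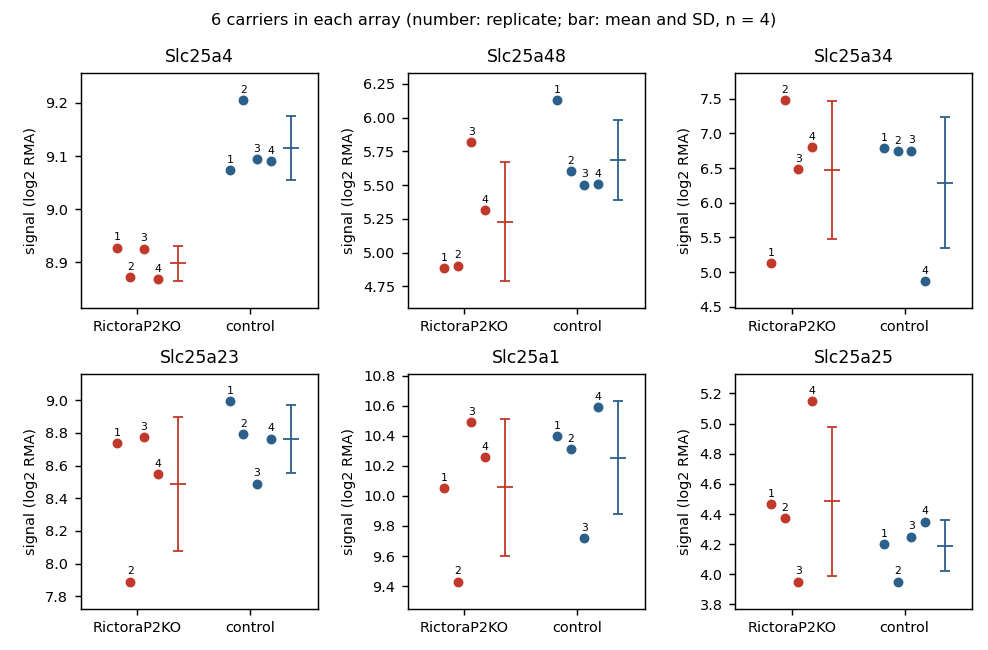
Log2 RMA signal of 6 carriers in each array, numbered by replicate, with mean and SD (n = 4 per group) beside the points; each panel has its own axis, which does not start at 0. In Slc25a4 the groups do not overlap, while in Slc25a23, Slc25a1 and Slc25a25 the difference shrinks to -0.07, 0.01 and 0.07 without 1 array each.

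Cofactor and metal carriers bring glutathione, NAD, pyrimidine nucleotides, folate, S-adenosylmethionine and iron into the matrix. Of these 9 members, 7 had differences above and 2 below 0, where 46.8% of all genes were above. Their median was 0.06, and 0 had an unadjusted p under 0.05. Without the 3 arrays with signal of other tissues the median was -0.0078. The mean over these members was highest in RictoraP2KO replicate 2 (0.15). Slc25a39, a glutathione carrier, stood at 9.59, 10.02, 9.82 and 9.77 against 9.93, 9.69, 9.65 and 9.73, a difference of 0.05 (SE 0.101). It was -0.10 without the 3 arrays and -0.02 without RictoraP2KO replicate 2 alone. Slc25a51, a NAD carrier, stood at 9.52, 9.94, 9.72 and 9.57 against 9.71, 9.55, 9.68 and 9.39, a difference of 0.11 (SE 0.109) that was 0.05 without the 3 arrays. In both carriers RictoraP2KO replicate 2 was the highest array, and without it the Slc25a51 difference was 0.02.

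Slc25a37, or mitoferrin 1, imports iron and is strongest in red cell precursors. It stood at 6.06, 5.80, 5.33 and 5.86 in the arrays labelled RictoraP2KO and at 5.47, 5.49, 5.96 and 5.41 in the control arrays. The groups overlapped and their means were 0.18 apart (SE 0.171; limma adjusted p = 0.841), a value that ran from 0.08 to 0.33 when single arrays were left out. The 3 measured red cell markers (Alas2, Slc4a1 and Epb42) had their highest means in RictoraP2KO replicate 1 (0.36) and control replicate 3 (0.58), the same arrays in which Slc25a37 was highest, and their part in it was not tested. The other mitoferrin, Slc25a28, was even across arrays, with a difference of 0.06 (SE 0.064). Differences were 0.13 for Slc25a33 and -0.04 for Slc25a36, the pyrimidine nucleotide carriers, and 0.11 for Slc25a32, the folate carrier. Slc25a40, a relative of Slc25a39, differed by 0.04, and Slc25a26, the S-adenosylmethionine carrier, by -0.05.

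Among the 7 other members, Slc25a35 stood at 9.64, 9.13, 9.27 and 9.35 against 9.38, 9.57, 9.00 and 9.57, a difference of -0.04 (SE 0.149). Slc25a16 stood at 8.98, 8.84, 8.92 and 8.97 against 8.81, 9.02, 9.11 and 8.95, a difference of -0.04 (SE 0.075). Groups overlapped in both. Slc25a43 stood at 3.18, 3.20, 3.35 and 3.19 against 3.15, 3.19, 2.92 and 2.86, a difference of 0.19 (SE 0.089; limma adjusted p = 0.703), on signals below the array median. Slc25a53 and Slc25a54, also below it, differed by -0.03 and -0.05. For Slc25a46, a protein of the outer membrane that shapes mitochondria, the annotation gives 2 probe sets, which disagreed in size. The brighter (mean 8.94) differed by -0.05 (SE 0.096) and the dimmer (mean 4.92) by -0.26 (SE 0.082; limma adjusted p = 0.651), the latter at an unadjusted p under 0.05.

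The SD between arrays of the same group was larger than the difference between groups for 41 of the 46 carriers. The share of all genes for which this held was not counted. The median SD within groups was 0.21 over the 34 members above the array median, against 0.16 over the 10409 genes above it. Signals of 7 members ranged over more than 1 unit. The widest was Slc25a34, described here after its values were seen. Its signals were 5.12, 7.48, 6.48 and 6.81 in the arrays labelled RictoraP2KO and 6.78, 6.74, 6.75 and 4.87 in the control arrays. RictoraP2KO replicate 1 and control replicate 4 were low and RictoraP2KO replicate 2 was high. Its SD within groups of 0.97 exceeded that of 99.7% of all genes, and the groups differed by 0.18 (SE 0.565, 95% interval -1.10 to 1.47). Without control replicate 4 the control arrays lay between 6.74 and 6.78.

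Some other genes were low in the same pair of arrays. Elovl3, a fatty acid elongase of active brown fat, stood at 6.84 and 8.29 there and at 9.63 or more elsewhere. The mean of 10 brown fat markers, Elovl3 among them, was -0.54 in RictoraP2KO replicate 1 and -0.18 in control replicate 4, against -0.08 to 0.36 in the other arrays. Without Elovl3, left out after the values were seen, the former was still the lowest at -0.29, while control replicate 4 stood at -0.06, above 4 of the other arrays. Slc25a17 was also lowest in them, at 8.89 and 8.91, where the other arrays ran from 9.06 to 9.78. A list of 12 measured import genes held Timm22 and its chaperone partners, and also Tomm70a, Tomm20, Tomm22 and Tomm40 of the outer membrane. Its means were -0.25 and -0.18 in this pair of arrays, and -0.09 to 0.19 elsewhere. Over the other 45 carriers, without Slc25a34, the means were -0.05 and -0.02, against -0.04 in RictoraP2KO replicate 2 and -0.01 to 0.04 in the rest. These arrays are in different groups, and the part of brown fat activity in the carrier values was not tested.

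**Figure D4:**
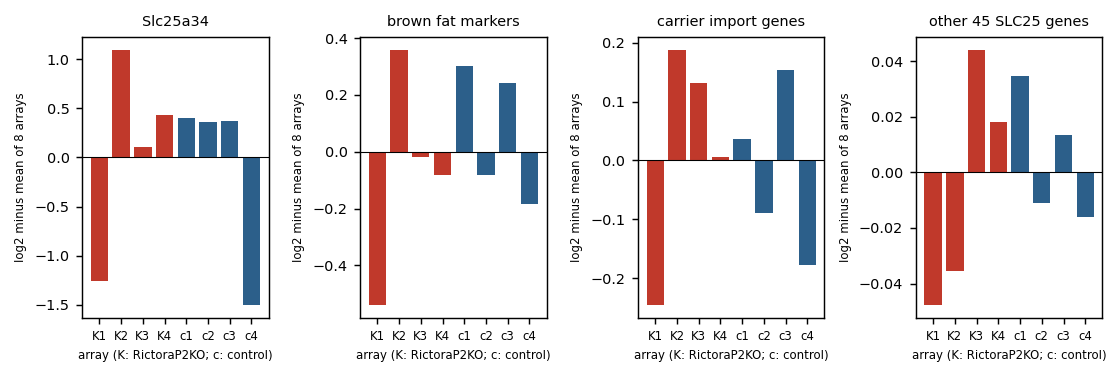
Bars give, for each array (K, RictoraP2KO; c, control), the log2 signal of Slc25a34 and the means of 10 brown fat markers, 12 carrier import genes and the other 45 SLC25 genes, each relative to the mean over the 8 arrays. Axes differ between panels; K1 and c4 are the 2 lowest bars in the first 3 panels, the second of which includes Elovl3, and in the last K1 (-0.05) and K2 (-0.04) are lowest.

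RictoraP2KO replicate 2 was the highest or lowest of the 8 arrays for 18 of the 46 carriers, the most of any array. Control replicate 1, not among the 3 arrays with signal of other tissues, was so for 17, and control replicate 2 for 4, the fewest. RictoraP2KO replicate 2 had the highest signal of Slc25a33 (6.79, others 5.51 to 6.10) and Slc25a12 (6.21, others 5.51 to 5.79), an aspartate/glutamate carrier typical of muscle and brain. Without that array the differences turned from 0.13 to -0.10 for Slc25a33 and from 0.11 to -0.03 for Slc25a12. Also without it, 11 of the 46 carriers changed sign, and the share over all genes was not counted. RictoraP2KO replicate 2 also carried the muscle signal given above, whose part in these values was not tested.

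**Figure D5:**
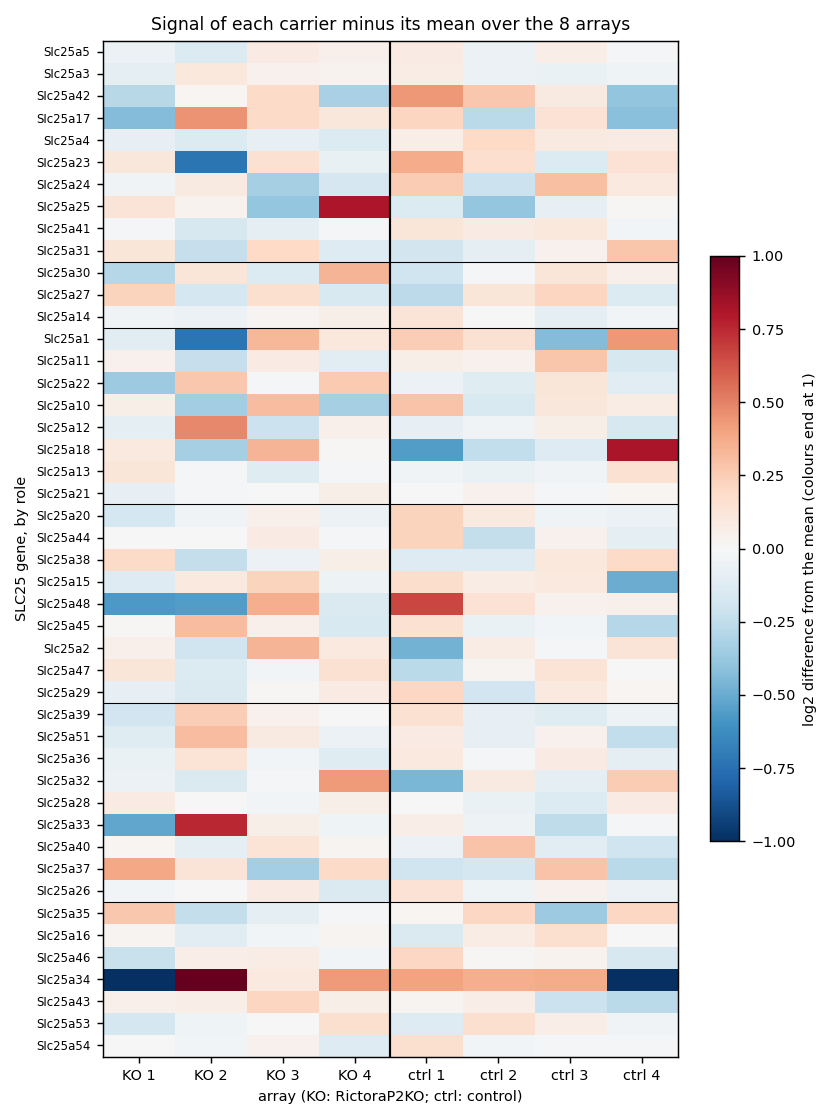
Signal of each of the 46 SLC25 genes in each array minus its mean over the 8 arrays, on a log2 colour scale that ends at 1 in either direction, with genes by role and the groups split by a line. No block of carriers changes colour between the groups, and single arrays stand out, such as RictoraP2KO replicate 1 and control replicate 4 for Slc25a34.

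Other genes of mitochondrial transport and import were read from lists chosen by function. Of 12 other mitochondrial transport genes, 2 were lower at an unadjusted p under 0.05 and 0 passed the adjusted test, with a median difference of -0.04. Over all genes 3.56% were lower and 2.92% higher at that level, and 2.07% lower and 1.5% higher without overlap. Vdac1, the pore of the outer membrane, lay between 9.91 and 10.10 in the arrays labelled RictoraP2KO and between 10.17 and 10.22 in controls, without overlap. Its difference was -0.17 (SE 0.060; limma adjusted p = 0.662), while its paralogs Vdac2 and Vdac3 differed by 0.01 (SE 0.055) and -0.04 (SE 0.058). Mcu, the pore of the calcium uniporter, differed by -0.20 (SE 0.084; limma adjusted p = 0.668). Among the 12 import genes, 1 was higher and 1 lower at that level. Agk, part of the inner membrane translocase for carriers, differed by 0.24 (SE 0.064; limma adjusted p = 0.639), and Timm13, a chaperone of the intermembrane space, by -0.15 (SE 0.054; limma adjusted p = 0.663), both without overlap between the groups.

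Of the 11 measured shuttle enzymes, 0 had an unadjusted p under 0.05. Acly differed by -0.54 (SE 0.443) and Mdh2, the malate dehydrogenase of the matrix, by -0.06 (SE 0.061). The 11 genes of mitochondrial content, among them citrate synthase and respiratory chain subunits, had a median difference of -0.02, with 0 at an unadjusted p under 0.05. Their array means lay between -0.07 and 0.07. Over all genes, 46.8% had differences above 0 and 53.2% below, and 2.92% were higher and 3.56% lower at an unadjusted p under 0.05. Macrophage markers had differences above 0 in 8 of 8 genes, 3 of them at that level. Their array means were -0.26 to 0.40 in the arrays labelled RictoraP2KO and -0.30 to 0.01 in the control arrays. Lymphocyte markers were above 0 in 8 of 8 genes, 1 of them (Cd4) at that level and without overlap. Their array means were -0.26 to 0.59 against -0.27 to 0.08. Without the 3 arrays with signal of other tissues, 0 genes of either list were at that level. Median differences then fell from 0.36 to 0.21 for macrophage and from 0.24 to 0.12 for lymphocyte markers. Brown fat markers were below 0 in 8 of 10 genes, 0 at that level, and 2 were lower at that level without the 3 arrays. Neuron markers were below 0 in 11 of 11 genes, 0 at that level, with array means of -0.34 to -0.14 in the arrays labelled RictoraP2KO. Control replicate 3 alone stood at 1.32, while control replicates 1, 2 and 4 stood at -0.15, -0.22 and -0.09. No macrophage, lymphocyte, brown fat or neuron marker passed the adjusted test (limma), and their part in the carrier differences was not tested.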

How the data were processed

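RNA of 8 samples was hybridised to Affymetrix arrays (1 each; 5 µg of total RNA entered the labelling), and the authors deposited log2 values. Per the submitters' processing notes, RMA was run in Affymetrix Power Tools 1.10.2, with an annotation build not given in the sources used here. Where several probe sets carried only 1 and the same symbol, the one of highest mean over the 8 arrays stood for the gene. The whole table of 28371 probe sets was fitted with limma 3.58.1 in R 4.3.3 (lmFit, eBayes, two-sided, no covariate, no filter, Benjamini-Hochberg over all probe sets, threshold 0.05), and the members were then read out. The fit was tested on simulated data.

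Array values were given for the 10 members with the smallest p and the 2 with the highest signal in each role group. Members and lists were chosen with earlier results of these data known. Alternatives were a filter on dim probe sets, other scalings and variance models, array weights, a replicate block, a mean over probe sets, and arrays left out. The labels name separate samples, not animals, so p-values measure the spread between samples. The number of arrays limits the precision.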

Additional observations from a re-analysis of the deposited data

Results flagged for a closer look

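In 9 of 92 groups of 4 arrays (46 genes in each genotype), 1 array lay far from the other 3 by Dixon's criterion. Chance flags about 1 in 20 groups. Slc25a34 was 4.87 in control replicate 4, with the others from 6.74 to 6.78. The same array held Slc25a15 at 5.21 (others 5.79 to 5.88) and Slc25a13 at 2.50 (others 2.28 to 2.31). Control replicate 1 held Slc25a48 at 6.13 (others 5.50 to 5.60), Slc25a3 at 10.68 (others 10.54 to 10.56) and Slc25a54 at 1.85 (others 1.67 to 1.69). Slc25a4 was 9.21 in control replicate 2 (others 9.07 to 9.10), and its difference without that array was -0.19. Slc25a37 was 5.96 in control replicate 3 (others 5.41 to 5.49). Slc25a43 was 3.35 in RictoraP2KO replicate 3 (others 3.18 to 3.20).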

How the results depend on the processing

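No SLC25 gene passed the adjusted threshold in any of the 18 alternatives run, the adjusted p under 0.1 among them. Slc25a4 stayed lower in all 17 refits, from -0.23 to -0.17, with adjusted limma p-values from 0.443 to 0.969, and at an unadjusted p under 0.05 in each refit but the one without the 3 arrays with signal of another tissue. Members lower at an unadjusted p under 0.05 numbered 1 to 3, and those higher 0 to 1, when single arrays were left out. Higher was Slc25a43 without control replicate 1 (0.23, limma adjusted p = 0.717) or control replicate 2 (0.25, adjusted p = 0.860). Without RictoraP2KO replicate 3 it was Slc25a25 (0.47, limma adjusted p = 0.579). Limma-trend gave 2 lower, with Slc25a41 joining Slc25a4. The family's median difference ran from -0.02 to 0.02. With the replicate number as a block, the median was -0.0091 and Slc25a4 differed by -0.22 (limma adjusted p = 0.820), with 1 member lower at an unadjusted p under 0.05. Deviations of same-numbered arrays from their group means correlated between -0.15 and 0.09. Deviations within a group sum to 0, so this cannot show whether such arrays share more than a number. Over the whole table the block left 0 probe sets at an adjusted p under 0.05, where 1 passed without it.

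Over all alternatives run, 26 of the 46 members changed sign in at least 1. The share of all genes that did so was not counted. Without those 3 arrays, the sign turned for 10 members, Slc25a33 (-0.189), Slc25a53 (0.0763), Slc25a38 (0.0318), Slc25a31 (0.017), Slc25a28 (-0.0078), Slc25a11 (0.0575), Slc25a3 (-0.0167), Slc25a16 (0.0805), Slc25a39 (-0.102) and Slc25a44 (-0.0445). Leaving out single arrays turned signs too, also among the members with array values in the text. Ranges were -0.376 to 0.0117 for Slc25a1, -0.0983 to 0.002 for Slc25a16 and -0.0675 to 0.00583 for Slc25a5. They were -0.0229 to 0.122 for Slc25a39, -0.0426 to 0.111 for Slc25a44 and -0.165 to 0.0349 for Slc25a35. For Slc25a27 the range was -0.0543 to 0.104, for Slc25a30 -0.0905 to 0.118 and for Slc25a34 -0.287 to 0.634. Causes were not tested. Slc25a41, Slc25a43 and the other 10 members below the array median were not tested under the filter on dim probe sets.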

Other observations

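Some carriers are neighbours on their chromosome among the protein-coding genes of RefSeq GRCm38.p6, in 4 pairs. Slc25a41 and Slc25a23 on chromosome 17 differed by -0.14 and -0.27, and Slc25a54 and Slc25a24 on chromosome 3 by -0.05 and -0.22. Slc25a43 and Slc25a5 on chromosome X differed by 0.19 and -0.04, and Slc25a29 and Slc25a47 on chromosome 12 by -0.07 and 0.05. None of these passed the adjusted test (limma), and whether neighbours move together was not tested.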
